A study of Drosophila melanogaster with 9 samples.

Results

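The genes followed here, 9 in number, are known for their work in the niche and the progenitors of the *Drosophila* lymph gland: *kn*, *odd*, *tup*, *Hand*, *hh*, *ptc*, *dlp*, *shg* and *Ance*. They were taken by symbol from the deposited table, which holds 17490 genes, and each of the 9 symbols matched 1 gene. The RNA came from adult hemocytes (AD), larval lymph glands (LG) and larval peripheral hemocytes (PH), with 3 biological replicates in each group and 9 samples in all. All animals were *w1118* females, a common laboratory strain with white eyes. AD were flushed with PBS out of adults aged about 5 days, LG were the anterior lobes cut out of wandering larvae of instar 3, and PH were let out of larvae of that same stage by opening the cuticle. AD and PH are therefore loose cells, whereas LG is a dissected organ together with whatever tissue stays attached to it. Each sample is bulk RNA, in which fewer cells of a type and less RNA per cell cannot be told apart.

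The lymph gland is the larval organ that makes blood cells, and it lies along the dorsal vessel, the insect heart. A small group of cells in each anterior lobe, the posterior signaling center, acts as a niche, and next to it lie undifferentiated progenitors in the medullary zone and maturing hemocytes in the cortical zone. The niche is known for the transcription factor Collier and for the secreted ligand Hedgehog, which progenitors receive through Patched. Progenitors are also known for high levels of E-cadherin and for the progenitor marker Ance, and the gland as a whole shares early regulators with the heart and with the pericardial cells beside it, which filter the hemolymph as nephrocytes do.

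Values are RPKM (reads for each kilobase of exons, divided by 1 total per library), so levels can be set side by side between genes as well as between samples. The totals that the values imply were proportional to median-of-ratios size factors, not to the reads recovered per library. Reads recovered from the RPKM values numbered 2920664 to 3201825 per AD sample, 2745573 to 6779942 per LG sample and 4999411 to 6534561 per PH sample, of which 43.0 to 61.5% lay in rRNA genes. The paper states a larger number of mapped reads for each sample, and the reason for this gap was not tested. Depth below means these recovered reads. Replicates correlated at r = 0.946 to 0.95 in AD, 0.904 to 0.954 in LG and 0.959 to 0.974 in PH (log2 values across genes, which are not independent). All 9 plasmatocyte markers listed were above 1 RPKM in every sample of the 3 groups. One library stood apart: the 7 ring gland genes, which belong to an endocrine gland close to the lymph gland, summed to 224 RPKM in LG replicate 1, against 1.08 and 1.16 RPKM in the other LG samples. Calls that rest on LG were therefore also computed without replicate 1 for the 9 genes, the pathway, junction, niche and progenitor lists, and the nephrocyte, heart and skeletal muscle lists. Other calls were not, among them those of the fat body genes and of the relatives of *Ance*. Yolk protein and other adult fat body genes summed to 8065 to 12510 RPKM in AD, 20.0 to 48.4 RPKM in LG and 384 to 443 RPKM in PH. The PH sum came mostly from *fat-spondin*, with 406, 351 and 404 RPKM in PH, whereas each yolk protein gene had at most 3.37 RPKM there. *fat-spondin* was called lower in AD than in PH (log2 fold change -1.70, limma adjusted p = 1.1e-05). The other 4 genes of this list were called higher in AD than in PH, as were 23.0% of all genes tested. The sum of the 6 larval fat body genes was lowest in AD, with 9.04 to 18.4 RPKM in AD, 108 to 175 RPKM in LG and 1430 to 1996 RPKM in PH. All 6 were called lower in AD than in PH and lower in LG than in PH, as were 13.9% and 7.63% of all genes tested. The 8 skeletal muscle genes summed to 471 to 514 RPKM in AD, 232 to 266 RPKM in LG and 52.8 to 74.7 RPKM in PH. Much of the AD sum came from *Mlc2*, with 273, 272 and 313 RPKM. In AD against LG, 3 of the 8 were called higher and 1 lower, beside 20.0% and 10.4% of all genes tested. The lower one was *Act57B*, with 18.6, 42.8 and 32.1 RPKM in AD, against 111, 108 and 124 RPKM in LG. The part of these tissues in the results was not tested.

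Between groups, log2 fold changes were taken on log2(RPKM + 1), which understates the change of low genes, and tested with limma over all genes above 1 RPKM in at least 3 of the 6 samples of a pair. A gene was called where the Benjamini-Hochberg adjusted p was under 0.01 and the log2 fold change exceeded 1 in size. Of the 9 genes, 6 were called lower in AD than in LG (*kn*, *odd*, *tup*, *dlp*, *Ance* and *Hand*) and 0 higher, where 10.4% of all genes tested were called lower and 20.0% higher. In LG against PH, 5 were called higher (*kn*, *odd*, *dlp*, *Ance* and *Hand*) and 0 lower, where 6.57% of all genes tested were called higher and 7.63% lower. In AD against PH only *kn* was called higher and only *Ance* lower, where 23.0% of all genes were called higher and 13.9% lower. Not all of the 9 were tested: *hh* was below the filter in every pair, *ptc* in AD against LG, and *odd*, *tup* and *Hand* in AD against PH. Without LG replicate 1, *tup* was the only one of these genes that lost its call in AD against LG, and the 5 calls in LG against PH remained. The filter weighs on these counts: *kn*, *odd*, *tup*, *shg* and *Hand* passed it in LG against PH through LG samples alone, *tup* and *Hand* passed it likewise in AD against LG, and in AD against PH *kn* and *shg* passed it through AD alone and *ptc* through PH alone. It weighs in the same way on the tissue genes above: *Lsp2*, *Fbp1* and *Lsp1alpha* of the larval fat body list passed it in AD against PH through PH alone. The skeletal muscle gene *Act88F*, called higher in AD than in LG, passed it there through AD alone. The same holds for other genes named below. Among these, *svp*, *mgl*, *Hs3st-B*, *wit*, *baz* and *Acer* passed it in AD against LG through AD alone. *svp*, *Antp* and *Ser* did so in AD against PH, and *Antp* and *sli* passed it in LG against PH through LG alone. By overlap alone, 6 of the 9 had all AD samples below all LG samples and 0 above, where the shares of all genes tested were 25.7% and 32.6%, and 3 (*kn*, *odd* and *shg*) had all AD samples above all PH samples and 2 (*ptc* and *Ance*) below, where the shares were 35.3% and 30.1%. Since all comparisons share groups, they are not independent of each other.

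**Figure D1:**
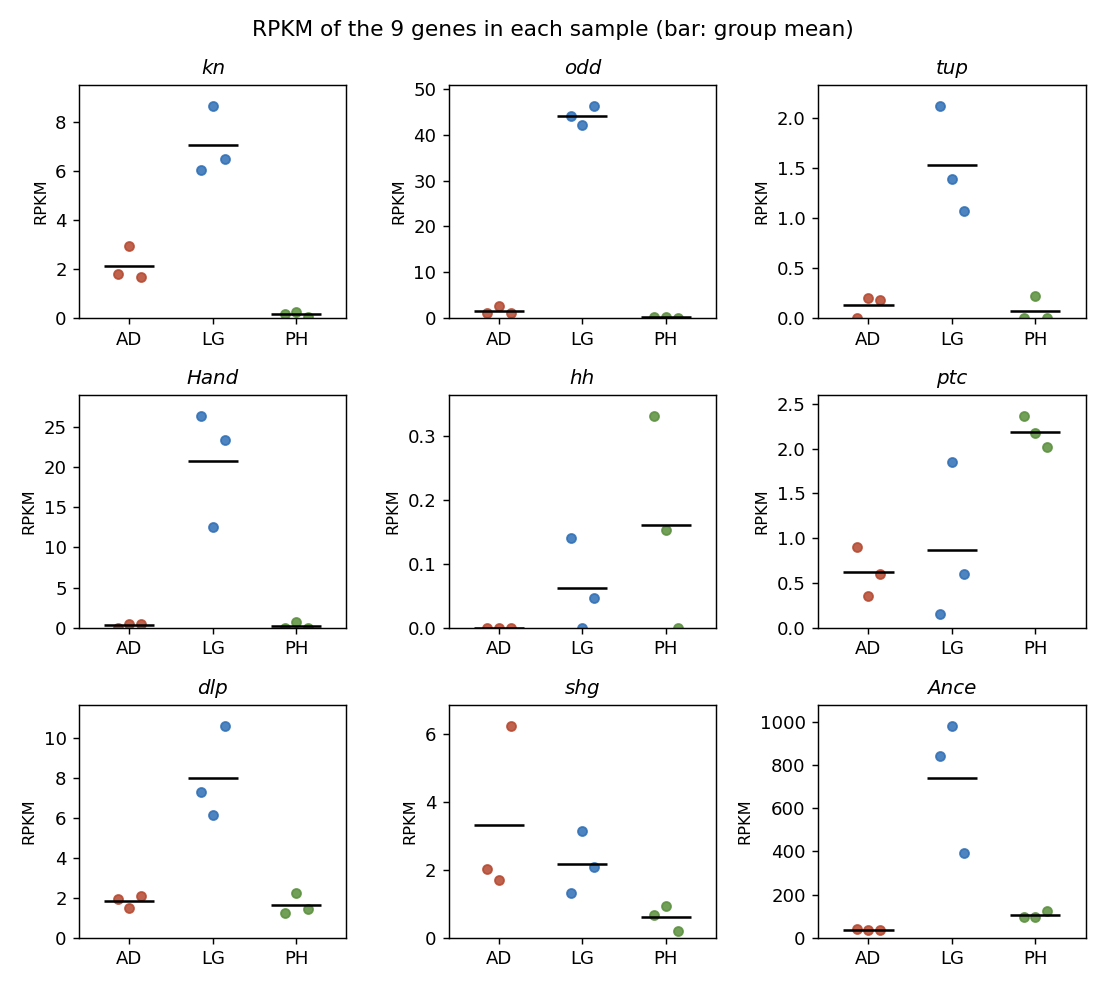
RPKM of the 9 genes in AD, LG and PH, with 1 point per replicate and a bar at the group mean; each panel has its own axis, which starts at 0. AD samples are at or under 2.68 RPKM for *odd* and *Hand*, LG samples at 42.0 to 46.3 and 12.5 to 26.3 RPKM and PH samples at or under 0.764 RPKM, and *ptc* is highest in PH, at 2.02 to 2.36 RPKM.

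By level alone, the groups held unequal numbers of the 9 genes. In AD, 4 of the 9 genes were above 1 RPKM in all 3 samples (*kn*, *dlp*, *shg* and *Ance*), in LG 7, with *hh* and *ptc* the exceptions, and in PH 3 (*ptc*, *dlp* and *Ance*). Over the whole table the shares above that level were 38.9% in AD, 35.6% in LG and 35.9% in PH.

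The first group of genes holds transcription factors. *kn* (FBgn0001319, chromosome 2R, 14772650 to 14807061, minus strand in the BDGP6.54 annotation, the dm6 coordinates used throughout) encodes Collier, the EBF-family factor that maintains the niche. It had 1.81, 2.94 and 1.65 RPKM in AD, 6.03, 8.64 and 6.48 RPKM in LG, against 0.179, 0.248 and 0.0592 RPKM in PH. The 3 groups did not overlap anywhere, with LG on top, AD between and PH at the bottom, and the reads numbered 87 in AD, 530 in LG and 12 in PH. *kn* was lower in AD than in LG by a log2 fold change of -1.37 ± 0.256 (SE, limma adjusted p = 0.0032, n = 3 each). It was higher in AD than in PH, at a log2 fold change of 1.41 ± 0.249 (limma adjusted p = 0.0013), and higher in LG than in PH, at 2.78 ± 0.247 (limma adjusted p = 0.00027). In pooled reads, AD had 12.2 times the PH level (95% exact interval 6.63 to 24.5, counting error only). The step between AD and LG was the least firm of the 3, as the adjusted p was 0.015 without AD replicate 1, 0.015 without AD replicate 3 and 0.013 without LG replicate 3. *kn* lies 19 bases from its annotated neighbour *BEAF-32*, whose RPKM (15.4, 16.9 and 15.4 in AD, 20.9, 17.7 and 25.8 in LG, 13.0, 10.1 and 14.6 in PH) had the same order of groups without overlap, at smaller differences that were not called in any pair (log2 fold changes -0.40 in AD against LG, 0.33 in AD against PH and 0.73 in LG against PH).

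*odd* (FBgn0002985, 2L, 3604224 to 3606756, minus strand) encodes Odd-skipped, a zinc finger factor first known from embryonic segmentation and expressed in the lymph gland primordium and pericardial cells. It had 0.988, 2.68 and 1.03 RPKM in AD, 44.1, 42.0 and 46.3 RPKM in LG, against 0.134, 0.232 and 0 RPKM in PH. LG was far above both other groups, and its replicates lay closer together than those of any other of the 9 genes in any group, with a coefficient of variation of 4.79%. The log2 fold change was -4.20 ± 0.267 in AD against LG (SE, limma adjusted p = 1.6e-05) and 5.33 ± 0.192 in LG against PH (limma adjusted p = 1.7e-05). Reads numbered 34 in AD, 1897 in LG and 5 in PH, so pooled levels were 28.9-fold lower in AD than in LG (95% interval 20.6 to 41.9) and 331-fold higher in LG than in PH (141 to 1019). *odd* was below the filter in AD against PH, although all 3 AD samples were above all PH samples, and with no filter its adjusted p was 0.017, above the 0.01 threshold. The relatives of *odd* were low: its neighbour *sob*, the sister gene 23454 bases away, averaged 0 RPKM in AD, 0.234 in LG and 0.0201 in PH, *drm* 0.678, 1.77 and 0.225, and *bowl* 0.431, 0.587 and 0.336 in that order of groups. These relatives were named after their values were seen, and all were below the filter.

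*Hand* (FBgn0032209, 2L, 10292679 to 10295385, minus strand) encodes a basic helix-loop-helix factor made in heart, pericardial and lymph gland cells. It had 0, 0.464 and 0.424 RPKM in AD, 26.3, 12.5 and 23.3 RPKM in LG, against 0, 0.764 and 0 RPKM in PH. Each LG sample exceeded every AD and PH sample, with 2 reads in AD, 289 in LG and 3 in PH. The log2 fold change was -4.02 ± 0.326 in AD against LG (SE, limma adjusted p = 5.1e-05) and 4.10 ± 0.352 in LG against PH (limma adjusted p = 0.00023). Pooled levels were 75.0-fold lower in AD than in LG (95% exact interval 20.6 to 622) and 83.9-fold higher in LG than in PH (28.4 to 409). The gene has only 713 bases of annotated exon, so that 3 reads came to 1.27 to 1.39 RPKM in an AD library and 0.662 to 1.09 RPKM in a PH library, and AD and PH could not be told apart at this depth. The genes on either side, *Ufd4* and *CYLD*, were at 8.33 to 39.5 RPKM in every sample and were not called in any pair. *Ufd4* shared the order of *Hand* in that all LG samples were above all others, at a log2 fold change of -0.27 in AD against LG and 0.40 in LG against PH, whereas all LG samples were below all others for *CYLD* (0.62 and -0.73).

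*tup* (FBgn0003896, 2L, 18859507 to 18881261, minus strand) encodes the LIM-homeodomain factor Tailup, the fly Islet, which is needed to form heart and lymph gland. Its levels were near the detection limit: 0, 0.200 and 0.182 RPKM in AD, 2.12, 1.39 and 1.07 RPKM in LG, against 0, 0.219 and 0 RPKM in PH. All LG samples were above all others, with 4 reads in AD, 88 in LG and 4 in PH. *tup* was called lower in AD than in LG (log2 fold change -1.15 ± 0.262 SE, limma adjusted p = 0.0079), but the call was lost with each of the 6 samples left out in turn, at adjusted p between 0.016 and 0.031. In LG against PH it missed the threshold (log2 fold change 1.22 ± 0.295 SE, limma adjusted p = 0.016). A microRNA gene, *mir-4946*, lies inside *tup* without exon overlap and had reads in LG replicate 1 only.

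*odd* and *Hand* are also genes of the pericardial cells. Of the listed genes of these nephrocytes, 1 was higher and 2 were lower of 4 tested in AD against LG, beside 20.0% and 10.4% of all genes (median -1.16, against 0.07 over all genes). In AD against PH 1 was higher and 0 lower of 2, beside 23.0% and 13.9% (0.56, against 0.05). In LG against PH 2 were higher and 0 lower of 3, beside 6.57% and 7.63% (2.72, against -0.01). The list of 8 nephrocyte genes summed to 4.65 to 6.94 RPKM in AD, 27.3 to 53.2 RPKM in LG and 3.64 to 4.10 RPKM in PH. Its LG sum came mostly from *Amnionless* and *Cubn*, the receptor pair with which nephrocytes take up protein. *Amnionless* had 0, 0 and 1.12 RPKM in AD, 34.6, 16.4 and 25.0 RPKM in LG, against 0.582, 0 and 0 RPKM in PH. *Cubn* had 0.875, 1.49 and 0.799 RPKM in AD, 12.2, 6.05 and 8.70 RPKM in LG, against 0.624, 0.432 and 0.366 RPKM in PH. Both were called lower in AD than in LG (log2 fold changes -4.30 and -2.25, limma adjusted p = 8.4e-05 and 0.00056) and higher in LG than in PH (4.44 and 2.72, adjusted p = 0.00013 and 0.00049), but the LG samples alone were enough to bring them past the filter in both pairs.

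Of the other genes of that list, *sns*, the nephrin of the filtration slit, had at most 0.209 RPKM in AD, 2.87, 0.949 and 1.86 RPKM in LG, against at most 0.0836 RPKM in PH, whereas *prc*, which encodes the matrix protein Pericardin, was at or under 0.375 RPKM in all 9 samples. *mgl*, a receptor of the same uptake route, was called higher in AD than in LG (1.13, limma adjusted p = 0.0041), though not without LG replicate 1 (limma adjusted p = 0.012), with *pyd* not called in any pair and *kirre* and *Klf15* below 1 RPKM throughout. LG replicate 2 was the lowest LG sample for *Hand*, *Amnionless*, *Cubn* and *sns*, and by a small margin for *odd*. It was also the lowest for *kirre*, *dlp*, *dally* and the heart genes *mid* and *svp*. For *Klf15* and the heart genes *tin* and *pnr* it was the highest, and for *pyd*, *mgl*, *H15*, *Sur* and *tup* it lay in between. Of 8 heart muscle genes, *tin* was at 0 in all AD samples, 0, 1.39 and 0.333 RPKM in LG and 0 in all PH samples, *H15* had at most 0.101 RPKM in AD, 1.17, 1.41 and 1.59 RPKM in LG, against 0 in PH, and *Him* and *eve* were at 0 in all 9 samples. *H15* was called lower in AD than in LG and higher in LG than in PH (-1.21 and 1.25, limma adjusted p = 0.0036 and 0.0098), in both pairs past the filter through LG alone and in neither called without LG replicate 1. *svp* ran opposite, with 7.22, 6.62 and 5.46 RPKM in AD, at most 0.300 RPKM in LG and at most 0.787 RPKM in PH. It was called higher in AD than in both (2.70 and 2.25, limma adjusted p = 7.1e-05 and 4.9e-05), in both pairs past the filter through AD alone. *pnr*, at 17.2 to 44.5 RPKM in all samples, was not called in any pair, and *mid* and *Sur* were below 1 RPKM throughout. The part of pericardial or heart cells in the LG levels of *odd*, *Hand* and *tup* was not tested.

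**Figure D2:**
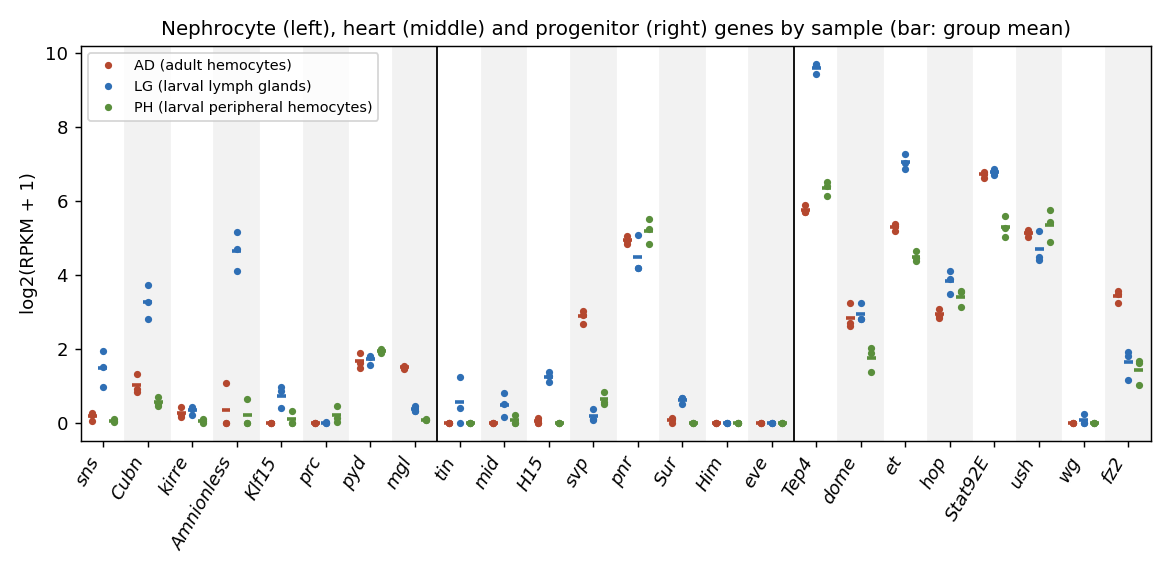
Levels of all genes of the nephrocyte, heart and progenitor lists (8 each), as log2(RPKM + 1), in AD, LG and PH, with 1 point per replicate and a bar at the group mean; vertical lines part the lists. *Amnionless*, *Cubn*, *Tep4* and *et* are highest in LG, *svp*, *mgl* and *fz2* are highest in AD, and *pyd*, *pnr* and *ush* were not called in any pair.

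The second group of genes sends and receives the Hedgehog signal. *hh* (FBgn0004644, 3R, 23128169 to 23141906, minus strand), the gene of the ligand, was scarcely detected in any group. It had 0 reads in the 3 AD samples, 2, 0 and 1 reads in LG, and 5, 2 and 0 reads in PH, with 0.332 RPKM in PH replicate 1 as its highest value. With 3 reads equal to 0.383 to 0.419 RPKM in an AD library and 0.140 to 0.418 RPKM in an LG library, no difference between groups was detectable at this depth, and no pair passed the filter.

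*ptc* (FBgn0003892, 2R, 8649649 to 8665223, plus strand) encodes Patched, the Hedgehog receptor, whose transcription itself rises in cells that receive the signal. It had 0.900, 0.360 and 0.602 RPKM in AD, 0.152, 1.85 and 0.602 RPKM in LG, against 2.36, 2.17 and 2.02 RPKM in PH. All PH samples were above all AD and LG samples, while AD and LG overlapped. The larval fat body genes above were likewise highest in PH, and their part in this was not tested. The log2 fold change in AD against PH was -0.99 ± 0.232 (SE, limma adjusted p = 0.006), which just missed the fold threshold. It passed that threshold without AD replicate 1 (-1.11, limma adjusted p = 0.0064). With any other sample left out, the limma adjusted p was 0.013 to 0.029, over the 0.01 threshold. In LG against PH the log2 fold change was -0.87 ± 0.360 (limma adjusted p = 0.10). The 3 LG samples differed widely among themselves, with 5, 31 and 30 reads in libraries of unequal size. *ptc* was the only one of the 9 genes with all LG samples below all PH samples, as were 24.7% of all genes tested, against 7 with all LG samples above all PH samples, as were 23.1% of all genes.

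*dlp* (FBgn0041604, 3L, 14632601 to 14671609, plus strand) encodes Dally-like, a heparan sulfate proteoglycan of the cell surface that binds Hedgehog and other ligands. It had 1.94, 1.50 and 2.09 RPKM in AD, 7.31, 6.14 and 10.6 RPKM in LG, against 1.25, 2.22 and 1.45 RPKM in PH. LG was above both loose cell populations, and AD and PH overlapped. The log2 fold change was -1.64 ± 0.256 in AD against LG (SE, limma adjusted p = 0.0013) and 1.76 ± 0.269 in LG against PH (limma adjusted p = 0.0024). The call against PH did not hold without LG replicate 3 (adjusted p = 0.013), PH replicate 1 (0.013) or PH replicate 3 (0.012). In AD against PH the log2 fold change was 0.12 with a 95% confidence interval of -0.44 to 0.67 (limma adjusted p = 0.70). The other fly glypican, *dally*, had the same order between LG and the rest but separated AD and PH too: it had 3.25, 1.77 and 2.56 RPKM in AD, 8.86, 5.45 and 8.77 RPKM in LG, against 0.632, 1.05 and 0.522 RPKM in PH. It was called in all 3 pairs, lower in AD than in LG (log2 fold change -1.30, limma adjusted p = 0.0056), higher in AD than in PH (1.01, limma adjusted p = 0.009) and higher in LG than in PH (2.31, adjusted p = 0.00084). Without LG replicate 1 the first of these was not called (-1.19, adjusted p = 0.021).

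**Figure D3:**
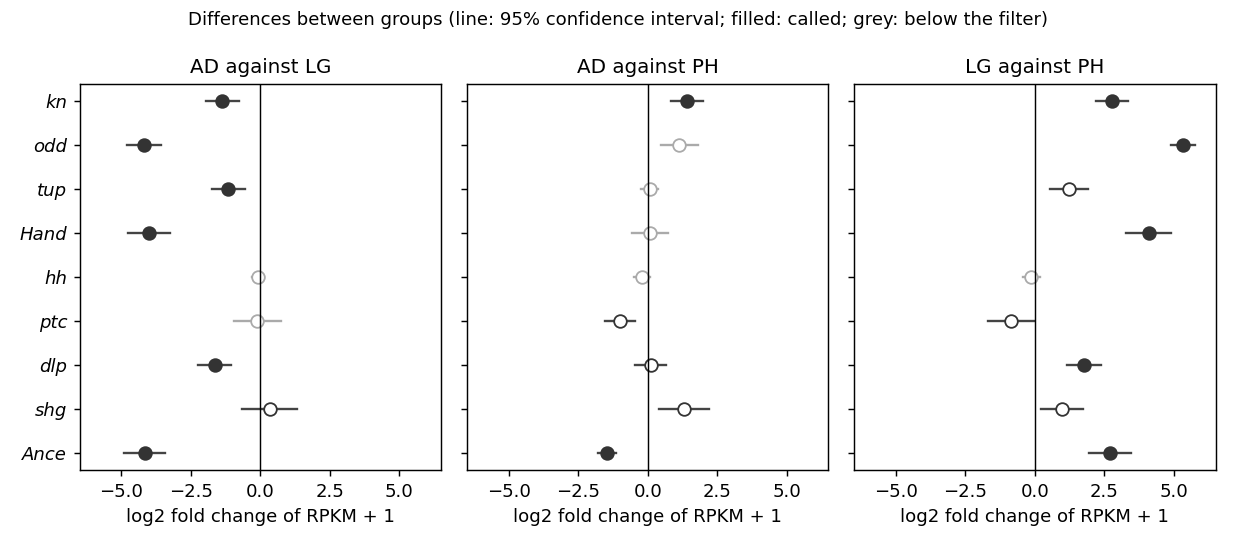
Log2 fold change of RPKM + 1 of the 9 genes in AD against LG, AD against PH and LG against PH, with lines for the 95% confidence interval; filled points were called, open points were not, and grey ones were below the filter and come from the fit without it. *odd*, *Ance* and *Hand* lie at -4.20, -4.17 and -4.02 in AD against LG and at 5.33, 2.71 and 4.10 in LG against PH.

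Most genes of the pathway around these were not called in any given pair. Of 24 Hedgehog pathway genes listed, 23 were found. In AD against LG, 19 were tested, of which 1 was called higher and 3 lower, where 20.0% of all genes tested were higher and 10.4% lower (median log2 fold change -0.17, against 0.07 over all genes tested). In AD against PH, 20 were tested, with 3 higher and 3 lower, beside 23.0% and 13.9% of all genes (median -0.07, against 0.05), and in LG against PH, 20 were tested, with 2 higher and 1 lower, beside 6.57% and 7.63% (median -0.05, against -0.01). The one called higher in AD than in LG was *ci*, the transcription factor at the end of the pathway, which had 35.0, 36.6 and 32.1 RPKM in AD, 4.98, 9.64 and 10.9 RPKM in LG, against 35.1, 32.9 and 26.1 RPKM in PH. *ci* thus ran opposite to *kn*, *odd* and *dlp*, with LG below both other groups (log2 fold change 1.96 in AD against LG, limma adjusted p = 0.00065, and -1.82 in LG against PH, adjusted p = 0.0023).

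*smo*, the transducer that Patched holds inactive, was lowest in AD, with 2.15, 1.65 and 1.21 RPKM, against 5.52, 6.26 and 4.89 RPKM in LG and 4.16, 4.99 and 3.82 RPKM in PH. It was called lower in AD than in LG (log2 fold change -1.31, limma adjusted p = 0.0029), though not without LG replicate 1 (adjusted p = 0.010, just over the threshold), and lower in AD than in PH (-1.01, adjusted p = 0.0055). Without that replicate, *dlp* was the 1 pathway gene called lower in AD than in LG. Of the kinases listed, *Pka-C1* (log2 fold change 1.91, limma adjusted p = 0.00015) and *CkIalpha* (1.35, adjusted p = 0.00014), which phosphorylate Ci for processing, were higher in AD than in PH, while *sgg* (0.89), *gish* (0.71), *fu* (-0.38) and *Gprk2* (0.02) were not called. *Su(fu)*, which holds Ci in the cytoplasm, and *rasp*, which adds the lipid to the Hedgehog ligand, were lower in AD than in PH (-1.51 and -1.32, limma adjusted p = 0.0033 and 0.0066).

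**Figure D4:**
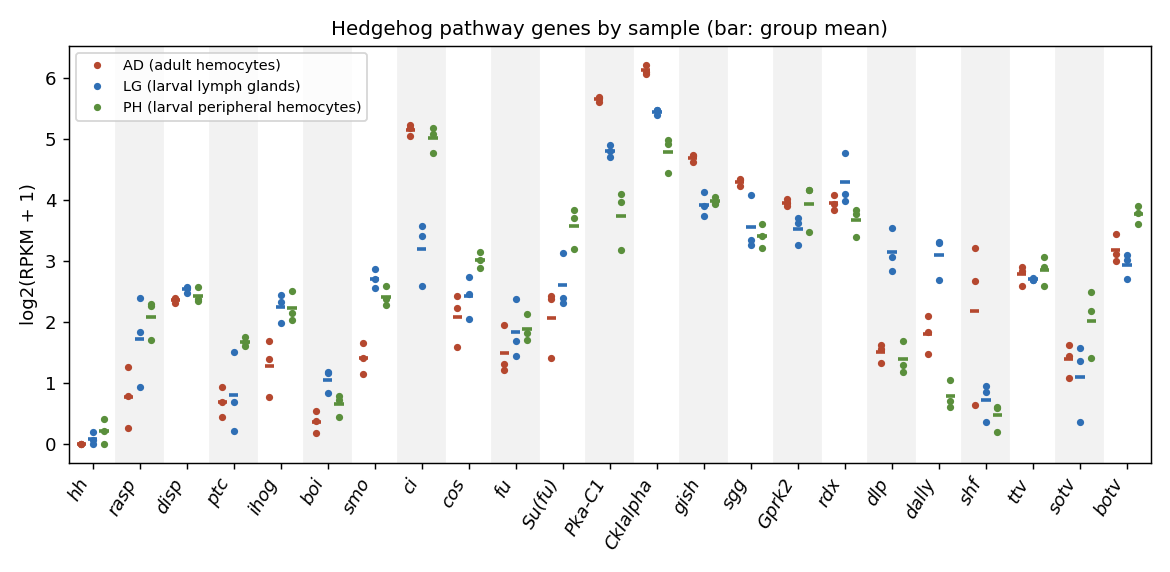
Levels of the 23 Hedgehog pathway genes found, as log2(RPKM + 1), in AD, LG and PH, with 1 point per replicate and a bar at the group mean. *hh* is at or near 0 in every sample, *ci* is lowest in LG, and *dlp* and *dally* are highest there.

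*dlp* and *dally* carry heparan sulfate chains, and most of the genes listed with them, which build and trim these chains, were not called in any given pair. Of 15 genes of that list found, 13 were tested in AD against LG, with 2 higher and 2 lower, where 20.0% and 10.4% of all genes were called (median 0.27, against 0.07 over all genes). In AD against PH, 13 were tested, with 3 higher and 1 lower, beside 23.0% and 13.9% (0.10, against 0.05), and in LG against PH, 12 were tested, with 2 higher and 2 lower, beside 6.57% and 7.63% (-0.16, against -0.01). The 2 called lower in AD than in LG were *dlp* and *dally* themselves, and the 2 called higher were *Sdc*, the syndecan core protein (log2 fold change 2.28, limma adjusted p = 0.0008), and the sulfotransferase *Hs3st-B* (1.70, adjusted p = 0.00082). *sgl*, which makes a sugar precursor of the chains, was lower in AD than in PH (-1.16, limma adjusted p = 0.00055) and lower in LG than in PH (-1.48, adjusted p = 0.0045). *Sdc* had 74.1, 50.1 and 85.7 RPKM in AD, 21.4, 11.9 and 9.17 RPKM in LG, against 44.0, 43.2 and 32.0 RPKM in PH, so that among these 3 core proteins *dlp* and *dally* were highest in LG and *Sdc* lowest there.

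The third group holds genes of the progenitors. *shg* (FBgn0003391, 2R, 21049654 to 21057197, minus strand) encodes E-cadherin, the adhesion protein of adherens junctions. It had 2.02, 1.71 and 6.23 RPKM in AD, 1.31, 3.15 and 2.08 RPKM in LG, against 0.664, 0.937 and 0.203 RPKM in PH. AD and LG overlapped, both lay above PH, and AD replicate 3 was the highest sample by far, with 132 of the 204 reads in AD. The log2 fold change in AD against LG was 0.33 with a 95% confidence interval of -0.65 to 1.32 (limma adjusted p = 0.55), and it was -0.11 without AD replicate 3. Neither difference from PH was called, with a log2 fold change of 1.31 ± 0.399 in AD against PH (SE, limma adjusted p = 0.021) and 0.98 ± 0.328 in LG against PH (limma adjusted p = 0.054). With voom on the recovered reads, however, *shg* was called higher in AD than in PH (2.33, limma adjusted p = 0.0036).

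Most other genes of these junctions were not called in any given pair. Of 11 adherens junction genes, 9 were tested in each pair, with 1 higher and 1 lower in AD against LG, where 20.0% and 10.4% of all genes were called (median log2 fold change 0.22, against 0.07 over all genes). Against PH, 2 were higher and 0 lower in AD, beside 23.0% and 13.9% (-0.06, against 0.05), and in LG against PH 1 was higher and 1 lower, beside 6.57% and 7.63% (-0.25, against -0.01). *ed*, which encodes the adhesion protein Echinoid, was lower in AD than in LG (-1.42, limma adjusted p = 0.0023) and higher in LG than in PH (2.05, adjusted p = 0.00048). *baz*, a polarity gene, was higher in AD than in either of the larval groups (1.92 against LG, limma adjusted p = 0.00025, and 1.67 against PH, adjusted p = 0.00018). *p120ctn*, a catenin of the same junctions, was lower in LG than in PH (-1.17, limma adjusted p = 0.0012). *arm*, the beta-catenin that binds E-cadherin, was at 39.3 to 65.8 RPKM in all 9 samples and was not called in any pair. The N-cadherin genes *CadN* and *CadN2* were at or under 0.407 RPKM throughout.

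*Ance* (FBgn0012037, 2L, 13905645 to 13909212, plus strand) encodes a secreted peptidase of the angiotensin-converting enzyme family. It was by far the most abundant of the 9 genes in each group, with 41.3, 34.1 and 37.1 RPKM in AD, 841.5, 983 and 394 RPKM in LG, against 97.4, 94.9 and 124 RPKM in PH. No 2 groups overlapped, and the order was LG, PH, AD, in contrast to LG, AD, PH for *kn*. By mean level *Ance* ranked 1009 among all genes in AD, 47 in LG and 392 in PH. It was called in all 3 pairs: lower in AD than in LG (log2 fold change -4.17 ± 0.318 SE, limma adjusted p = 4e-05), lower in AD than in PH (-1.46 ± 0.140, limma adjusted p = 3.8e-05) and higher in LG than in PH (2.71 ± 0.323, adjusted p = 0.00091). These calls were kept with each sample left out in turn.

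Of the relatives of *Ance*, which were named after their values were seen, *Ance-5*, *Acer* and *Ance-4* were higher in AD. *Ance-5* averaged 293 ± 29.3 RPKM in AD, 19.9 ± 4.30 RPKM in LG and 108 ± 21.1 RPKM in PH (SD, n = 3 each), and it was higher in AD than in both larval groups (log2 fold change 3.83 against LG and 1.44 against PH, limma adjusted p = 4.6e-06 and 6.5e-05). *Acer* had 49.7, 45.9 and 53.5 RPKM in AD, at most 0.242 RPKM in LG and at most 1.97 RPKM in PH (log2 fold change 5.53 against LG and 4.32 against PH, limma adjusted p = 2.2e-06 and 7.4e-07). *Ance-4* averaged 14.9 ± 2.86 RPKM in AD, 1.32 ± 1.38 RPKM in LG and 1.64 ± 0.984 RPKM in PH (SD, with log2 fold changes of 2.96 and 2.64 and limma adjusted p = 0.0013 and 9.9e-05). The adjacent gene *Ance-2*, which lies 120 bases from *Ance*, was at or under 0.298 RPKM in AD, at 1.58, 0.446 and 0.349 RPKM in LG, and at or under 0.117 RPKM in PH. *Ance-3* was at or under 0.387 RPKM in AD, 0.0323 RPKM in LG and 0.758 RPKM in PH, and was below the filter in every pair. Reads of these related genes were taken as the authors counted them.

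Other genes of the progenitors and the niche were then set beside the 9. Of 8 progenitor genes, *Tep4*, a thioester-containing protein and medullary zone marker, had 50.9, 51.7 and 58.9 RPKM in AD, 815, 840 and 696 RPKM in LG, against 70.1, 90.6 and 83.5 RPKM in PH. *et*, a short receptor of the JAK/STAT family that limits that signal, had 39.6, 40.7 and 35.9 RPKM in AD, 131, 117 and 154 RPKM in LG, against 24.3, 20.9 and 19.9 RPKM in PH. Both resembled *Ance* and *odd* in that LG stood clear of the other groups, and they were the 2 genes of this list called lower in AD than in LG (log2 fold changes -3.84 and -1.76, limma adjusted p = 2.1e-06 and 5.6e-05). In that pair 7 of the 8 were tested and 1 was higher (*fz2*, a Wingless receptor, 1.79, limma adjusted p = 0.001), where 20.0% of all genes were higher and 10.4% lower, with a median of -0.11, against 0.07 over all genes.

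In LG against PH, 3 of 7 progenitor genes tested were higher and 0 lower, where 6.57% and 7.63% of all genes were called (median 1.20, against -0.01 over all genes), namely *Tep4* (3.25, limma adjusted p = 3.5e-05), *et* (2.57, adjusted p = 8e-05) and *Stat92E*, the STAT factor (1.48, adjusted p = 0.00091). In AD against PH, 3 of 7 were higher and 0 lower, beside 23.0% and 13.9% of all genes (median 0.81, against 0.05), with *fz2* (1.99, limma adjusted p = 0.00016), *Stat92E* (1.42, adjusted p = 8.9e-05) and *dome*, the JAK/STAT receptor (1.09, adjusted p = 0.0073).

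Of 9 other niche genes, *Antp*, the homeotic gene that sets up the niche, had 1.76, 1.37 and 1.49 RPKM in AD, 3.15, 3.34 and 2.91 RPKM in LG, against 0.0419, 0.290 and 0.104 RPKM in PH. This was the order of *kn*, with no overlap between groups, although in AD against LG *Antp* was not called (log2 fold change -0.70, limma adjusted p = 0.029). *Antp* was higher in AD than in PH (1.15, limma adjusted p = 0.0024) and in LG than in PH (1.86, adjusted p = 0.0015). The whole list had 1 higher and 1 lower of 7 tested in AD against LG, where 20.0% and 10.4% of all genes were called (median -0.70, against 0.07 over all genes). It had 3 higher and 1 lower of 7 in AD against PH, beside 23.0% and 13.9% (0.39, against 0.05), and 3 higher and 0 lower of 6 in LG against PH, beside 6.57% and 7.63% (0.67, against -0.01).

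Besides *Antp* and *dally*, *Ser*, a Notch ligand, was higher in AD than in PH (2.59, limma adjusted p = 1.7e-05), *sli*, the ligand of Robo receptors, was higher in LG than in PH (1.43, adjusted p = 0.0073), and *Ilp6*, an insulin-like peptide gene, was lower in AD than in PH (-2.70, adjusted p = 3.4e-05). *fax* was higher in AD than in LG (3.07, limma adjusted p = 0.010, just under the threshold), with 13.5, 146 and 34.4 RPKM in LG. Without LG replicate 1, *fax* (adjusted p = 0.016) and *dally* were not called in AD against LG, *Ser* was called higher there (1.72, adjusted p = 0.0099), and *sli* was not called in LG against PH (adjusted p = 0.020).

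The Dpp signal is known to limit the size of the niche. Of 11 genes listed, 3 were higher and 0 lower of 11 tested in AD against LG, where 20.0% of all genes were higher and 10.4% lower (median 0.62, against 0.07 over all genes). In AD against PH, 4 were higher and 0 lower of 11, beside 23.0% and 13.9% (0.32, against 0.05), and in LG against PH 1 was higher and 0 lower of 10, beside 6.57% and 7.63% (-0.15, against -0.01). The ligand *dpp* had 28.7, 32.4 and 26.5 RPKM in AD, 1.67, 3.61 and 2.82 RPKM in LG, against 11.4, 7.98 and 5.83 RPKM in PH, the reverse of *odd* between AD and LG. *dpp* was called higher in AD than in LG (log2 fold change 3.06, limma adjusted p = 4.5e-05) and higher in AD than in PH (1.72, limma adjusted p = 0.00022). *wit*, a receptor of the BMP family, and *shn*, a cofactor at Dpp target genes, were also higher in AD than in LG (1.32 and 1.07, limma adjusted p = 0.0024 and 0.0082), the second not without LG replicate 1 (0.92, adjusted p = 0.025). The pathway target *Dad* was higher in AD than in PH (2.36, limma adjusted p = 2.3e-05) and higher in LG than in PH (1.50, adjusted p = 0.0031), the second of which did not hold without LG replicate 1 (1.33, adjusted p = 0.011). Without that replicate, *Dad* was called higher in AD than in LG (1.03, limma adjusted p = 0.0068), where it was not called with all samples.

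Across all 9 samples, the genes most alike in pattern were sought by Pearson's r of log2(RPKM + 1) among 8065 genes, as a description only, since these samples share their groups and any gene that differs between LG and the rest scores high. The closest genes were *klar*, *wde* and *Rm62* for *kn* (r = 0.985, 0.980 and 0.980), and *CG8108*, *GILT3* and the progenitor gene *et* for *odd* (0.986 each). For *Hand* they were *Cad86C*, *Acn* and *CG42232* (0.995, 0.989 and 0.987), and for *dlp* they were *CG30457*, *Hand* and FBgn0010607 (0.982, 0.976 and 0.975). For *tup* they were *CG14258*, *Mtor* and *Rbm13* (0.980, 0.979 and 0.978), and for *Ance* they were *CG15282*, *Tep1* and *eIF3-S10* (0.979, 0.974 and 0.969). *ptc* was closest to *Sid*, *Sply* and *CR44825* (0.977, 0.968 and 0.965), which averaged 3.28, 18.5 and 0.268 RPKM in AD, 19.9, 27.7 and 1.07 RPKM in LG, against 132, 87.2 and 3.88 RPKM in PH. *shg* had the weakest partners of the genes that passed the filter, *Nedd4*, *ImpL3* and *CG34195* (0.943, 0.924 and 0.918). *hh* was below the filter, and the genes nearest to it, *CG15317*, *CG2889* and *ple* (0.906, 0.906 and 0.883), follow the few reads it had. *Hand* was the only one of the 9 genes found among the nearest 3 of another.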

How the data were processed

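RNA sequencing of AD, LG and PH (3 samples each) was analysed from the deposited table of RPKM values. According to the submitters' notes and the methods, the authors used Trimmomatic 0.32, HISAT2 2.1.0 on dm6, HTSeq 0.5.4p5, Cufflinks 2.2.1 for RPKM and DESeq2 1.2.8. The totals that these values imply were proportional to median-of-ratios size factors (their quotient varied by 0.102%), a scaling that the methods do not mention for RPKM. The 17490 genes were matched to the BDGP6.54 annotation (98.9%, by identifier or symbol), and whole reads were recovered from RPKM, exon length and 1 total per library, with 97.8 to 97.9% of values above 0 whole within 0.02. Intervals are exact at 95%, and the limit for 0 reads is 3 reads, both for counting error only. Each pair was fitted in R 4.3.3 by limma 3.58.1 (lmFit, eBayes with a trend) on log2(RPKM + 1) over all genes passing the filter, two-sided, and the procedure was tested on simulated data. Python 3.11.15, numpy 2.4.6, pandas 2.3.3, scipy 1.17.1 and matplotlib 3.10.9 were used otherwise. The 9 genes and the lists were chosen with earlier results of these data known. Named are the 9 genes, genes that overlap them, the 3 most alike to each, up to 4 called genes per list by size of change, marker genes of attached tissues, and genes chosen once values were known; *BEAF-32*, *Ufd4*, *CYLD*, *dally* in its per-sample values, *arm*, *CadN* and *CadN2* are of the last kind. Alternatives were other pseudocounts, filters, scalings, fits and left-out samples. The sources differ on the RNA kit and the sequencer, and the submitters' notes also name TopHat and the BDGP5 build beside HISAT2 and dm6. Reads, sequences and promoter motifs were not analysed here.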

Additional observations from a re-analysis of the deposited data

How the results depend on the processing

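No call of the 9 genes changed direction under any alternative run. Of the values of single genes under alternatives, 304 kept their side of the threshold, 19 lost the call and 8 gained it. Of the genes called lower in AD than in LG, 3 were left with a pseudocount of 5, and 4 to 5 with a sample left out. Those higher in AD than in PH numbered 0 with a pseudocount of 5, 0 with a filter at RPKM 5, which *kn* does not pass, and 2 with voom, and 1 with each sample left out. Those lower in AD than in PH numbered 2 with quantile normalization, 2 with scaling to reads outside rRNA genes and 2 with voom, in each case with *ptc* added, and 1 to 2 with a sample left out. In LG against PH, 4 to 5 were higher with a sample left out, and 1 (*ptc*) was lower with array weights. With RPKM above 2 as the threshold, 1 gene was expressed in AD in place of 4. The same-numbered samples did not deviate together (r between -0.11 and 0.05). With the replicate block, genes called in AD against LG numbered 1376 higher and 655 lower, against 1553 and 805 without it, in LG against PH 354 and 448, against 466 and 541, and the block ended the call of *tup* in AD against LG (-1.15, adjusted p = 0.027) and no other call of the 9. Other scalings shifted the median of all genes by up to -0.28 in AD against LG, -0.24 in AD against PH and 0.31 in LG against PH. Called genes then numbered 1226 higher and 1325 lower in AD against LG (reads outside rRNA), 1456 and 1424 in AD against PH (quantile) and 734 and 321 in LG against PH (total reads), against 1773 and 1071 in AD against PH and the counts above otherwise. With no filter, 296 genes were higher and 389 lower in LG than in PH, with array weights 761 and 771, and 252 and 363 with a pseudocount of 5, while that pseudocount gave 1044 and 439 in AD against LG and 1073 and 638 in AD against PH. With a sample left out, 188 to 587 genes were higher and 224 to 682 lower in LG than in PH, and 490 to 810 lower in AD than in LG. The causes were not tested. Without LG replicate 1, an alternative chosen after seeing the data, counts in AD against LG were 0 lower for the niche list, 1 lower for the Hedgehog list, 1 lower for heparan sulfate, 0 higher for nephrocytes and 0 lower for heart muscle, and in LG against PH 0 higher for Dpp and 0 higher for heart muscle. Depth limits *hh*, *tup*, and *Hand* outside LG, which rest on few reads.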
